A study of Mus musculus with 41 samples.

Results

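The 9 genes described here mark early B cell development in mouse bone. Cd79a, Pax5 and Ebf1 are used along most of the B lineage and are called pan-B genes below. Rag1, Rag2, Vpreb1, Igll1, Dntt and Il7r are used mainly by pro-B and pre-B cells and are called precursor genes. The 9 genes were chosen by symbol and each matched 1 of the 43346 genes in the table of raw counts. RNA was sequenced from the tibia diaphysis of 41 female INK-ATTAC mice on a C57BL/6 background. They were 12 young mice, 13 old + vehicle-treated mice (vehicle mice below) and 16 old + AP-treated mice (AP mice below). The labels put the young mice at 6 to 12 months and the old mice at 20 months, when injections of vehicle or of 10 mg AP20187 (AP) per kg began. The old mice were injected for 4 months and killed at 24 months, while the treatment label of the young mice is vehicle. All 41 mice carry the transgene, in which a fragment of the p16 promoter drives a caspase that AP activates, so that cells with an active p16 promoter can be removed. A group therefore differs from the others in age, in AP or in both, and not in genotype. The bones were centrifuged before RNA extraction to remove marrow, so that the B lineage was read from the cells that this step left behind.

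B cells are made in the bone marrow in ordered steps. EBF1 and PAX5 are transcription factors that commit progenitors to the B lineage, and interleukin-7, made by stromal cells and received by IL7R, keeps pro-B cells alive and dividing. RAG1 and RAG2 together cut the immunoglobulin genes so that their segments can be joined, and the polymerase TdT, encoded by Dntt, adds nucleotides to the joints. A rearranged heavy chain is then tested at the surface together with the surrogate light chain, which is built from VPREB1 and the lambda 5 protein of Igll1, and with the signalling chain CD79A. CD79A and PAX5 stay in use in mature B cells, whereas the surrogate light chain, the recombinases and TdT are switched off. Il7r, Rag1, Rag2 and Dntt are also used by developing T cells, Il7r by mature T cells, and Ebf1 by marrow stroma and adipocytes.

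Promoter sequence is shown for 3 precursor genes, because Igll1 and Vpreb1 are neighbours whose levels followed each other most closely among the 9 genes and because Rag1 had the largest difference with age. The windows hold the 250 bases before the RefSeq start of each gene in build GRCm38.p6, read 5' to 3' on the strand of the gene, which is the minus strand for all of them. Igll1 lies at chr16:16863986-16864235, Vpreb1 at chr16:16869256-16869505 and Rag1 at chr2:101649533-101649782. Capitals mark the E-box motif CANNTG, the kind of sequence that E2A proteins bind, and the motif CCCNNGGG, the kind that EBF1 binds. Both motifs read the same on either strand, and no match of one overlaps a match of the other.
Igll1: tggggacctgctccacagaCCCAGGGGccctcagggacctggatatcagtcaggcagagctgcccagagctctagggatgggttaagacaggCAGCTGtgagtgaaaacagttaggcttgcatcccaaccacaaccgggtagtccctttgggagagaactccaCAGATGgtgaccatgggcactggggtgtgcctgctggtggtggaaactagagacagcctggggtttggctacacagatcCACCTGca
Vpreb1: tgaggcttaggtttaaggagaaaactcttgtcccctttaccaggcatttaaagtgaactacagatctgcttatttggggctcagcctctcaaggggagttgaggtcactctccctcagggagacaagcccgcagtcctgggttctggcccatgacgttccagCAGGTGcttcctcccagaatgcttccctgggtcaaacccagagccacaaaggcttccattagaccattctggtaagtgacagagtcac
Rag1: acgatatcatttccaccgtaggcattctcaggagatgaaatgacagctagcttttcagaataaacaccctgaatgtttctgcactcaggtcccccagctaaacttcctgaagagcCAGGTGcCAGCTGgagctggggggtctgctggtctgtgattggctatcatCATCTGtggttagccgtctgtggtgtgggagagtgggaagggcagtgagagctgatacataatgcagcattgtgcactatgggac
The Igll1 window held 1 match to CCCNNGGG and 3 to CANNTG, the Vpreb1 window 1 match to CANNTG and the Rag1 window 3. Among 32851 RefSeq promoter windows of 250 bases, 11.8% held CCCNNGGG and 66.2% held CANNTG. The Vpreb1 window lies inside the gene as the count table has it (chromosome 16, 16868402 to 16870843), since that annotation starts further upstream. A window was found for 9 of the 9 members. CCCNNGGG was found in the Igll1 window and in no window of another member, which says only that these letters are absent there. The Cd79a window held 134 bases in place of 250, and Ebf1 had a pair of windows.

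Igll1 (ENSMUSG00000075370) and Vpreb1 (ENSMUSG00000059305) lie 4416 bases apart on chromosome 16, and Rag2 (ENSMUSG00000032864) and Rag1 (ENSMUSG00000061311) 5752 bases apart on chromosome 2. Reads of some members could have been shared with other genes. The transcripts of Vpreb1 and Vpreb2 were identical at 97.36% of 759 aligned bases. Vpreb1 also partly overlaps Top3b, and Rag1 and Rag2 lie inside B230118H07Rik. Since no source used here says whether the counting used strand, the counts of Vpreb1, Rag1 and Rag2 are uncertain to that extent.

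The libraries held 37028959 to 75942717 counts (median 47774880), so that even Rag2, the lowest member, was read 5 to 323 times per mouse. Levels are given as CPM, counts scaled to a common library size by edgeR's TMM method, a scaling that makes libraries of different composition comparable. All 9 members passed the filter on low counts and were among the 19292 genes tested. The summed level of 8 osteoblast and osteocyte genes ran from 6795 to 87133 CPM, with the collagen genes Col1a1 and Col1a2 the highest of the list by median. The other genes of the list were lower, and Bglap and Sost went down to 16.5 and 32.2 CPM among AP mice. Skeletal muscle genes (summed level of 6 genes, 5331 to 79042 CPM) and neutrophil genes (8 genes, 4792 to 33282 CPM) varied widely too, so that the tissue mix differed between mice. Nothing in the labels names a batch. In bulk RNA, fewer B lineage cells and less RNA per cell cannot be told apart.

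Per kilobase of the gene length in the table, Cd79a was the highest member in young mice, with a median of 39.03 CPM per kb and no overlap with any other member. Pax5 followed at 4.70, Ebf1 at 4.49, Dntt at 3.85, Il7r at 3.79, Rag1 at 3.44, Vpreb1 at 3.24 and Igll1 at 2.40 CPM per kb. The ranges of these 7 genes overlapped each other, so that their order was not resolved beyond the spread between mice. Rag2 was lowest, with a median of 0.669 and a highest mouse of 1.15 CPM per kb, below the lowest mouse of Igll1 at 1.34.

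**Figure D1:**
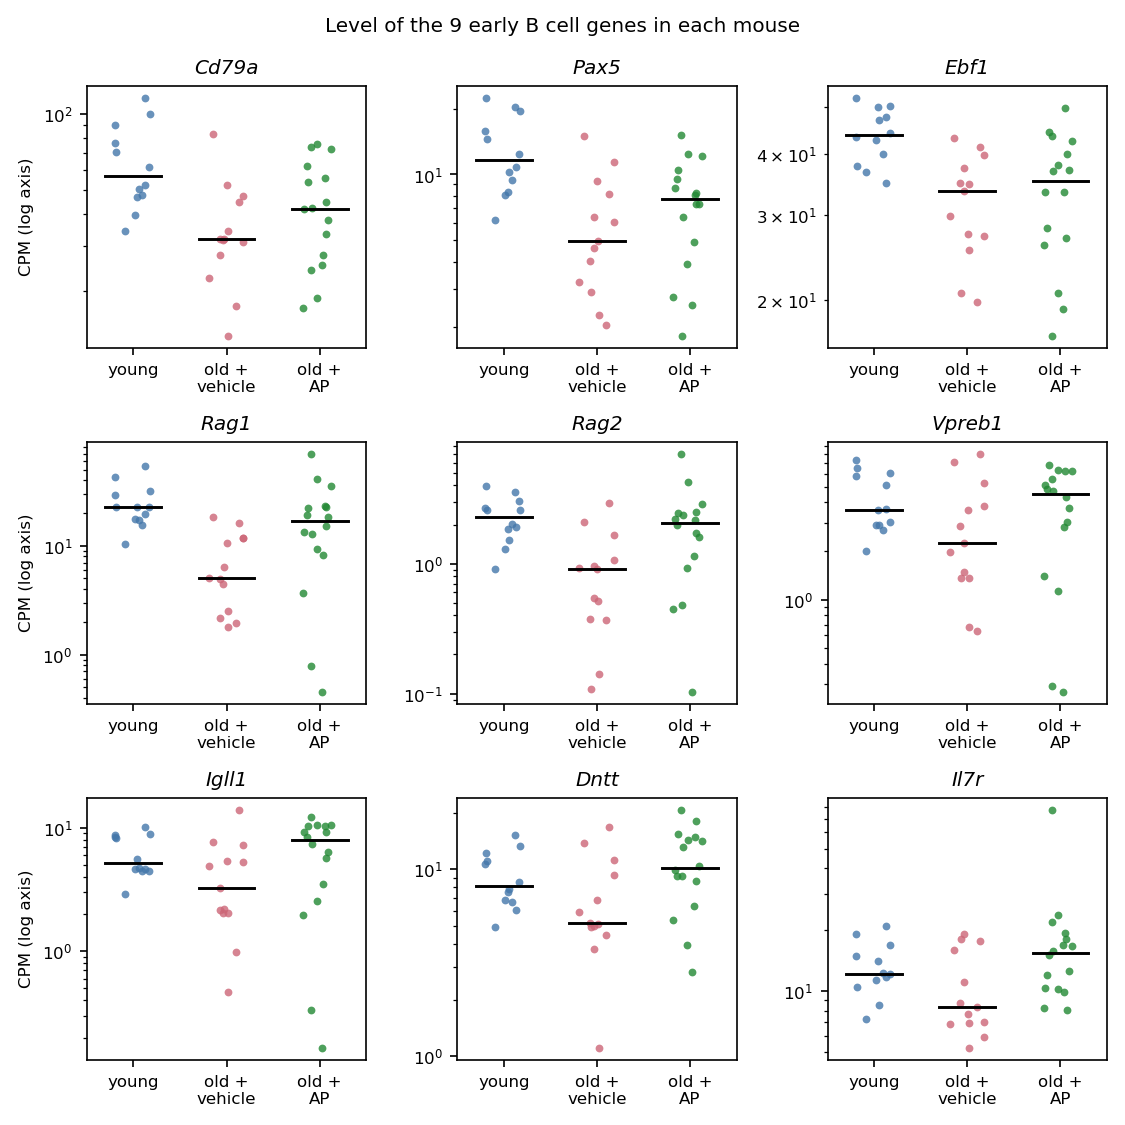
Level of each of the 9 genes (CPM, log axis, own scale per panel) in every young, vehicle and AP mouse. Each point is 1 mouse and each line a group median. The median of Rag1 was 22.7 CPM in young, 5.10 in vehicle and 16.9 in AP mice, and a pair of AP mice lay far below the rest for Rag1, Vpreb1 and Igll1.

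The first comparison asked how the B lineage genes differed with age. In vehicle against young mice, 4 of the 9 members fell, namely Rag1, Rag2, Pax5 and Cd79a, and no member rose. Among all genes tested, 9.06% passed the same threshold (a log2 fold change of more than 0.5 either way at an adjusted p below 0.05) and 4.76% passed it downwards. Each of the 9 members had a log2 fold change below 0, with a median of -0.51 beside 0.0066 over all genes tested. By class, 2 of 3 pan-B and 2 of 6 precursor genes passed.

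Rag1, the recombinase subunit that cuts DNA, showed the widest gap. Its lowest, median and highest levels were 10.3, 22.7 and 53.5 CPM in young mice, 1.78, 5.10 and 18.4 CPM in vehicle mice and 0.452, 16.9 and 69.7 CPM in AP mice. All 13 vehicle mice lay below the young median and 8 of them below the lowest young mouse, although the ranges overlapped. The mean fell from 25.5 ± 12.3 CPM (SD, n = 12) to 7.57 ± 5.65 CPM (SD, n = 13), a log2 fold change of -1.75 (SE 0.47, edgeR adjusted p = 0.00724) or 0.297 of the young level. Rag2, its partner, had lowest, median and highest levels of 0.914, 2.29 and 3.94 CPM in young and 0.109, 0.917 and 2.94 CPM in vehicle mice. Of the 13 old mice, 12 lay below the young median. Its log2 fold change was -1.26 (SE 0.42, edgeR adjusted p = 0.0302), and without young mouse 33 or young mouse 34 the adjusted p was 0.0546 or 0.0516.

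Cd79a (ENSMUSG00000003379, chromosome 7, 24897381 to 24902197), the signalling chain of the B cell receptor, ranged from 34.3 through a median of 56.9 to 115 CPM in young mice and from 13.2 through 31.9 to 83.1 CPM in vehicle mice. Except for mouse 6, the old mice lay below the young median, and 8 of 13 lay below the lowest young mouse. The mean fell from 65.5 ± 25.5 (SD, n = 12) to 36.1 ± 17.97 CPM (SD, n = 13), with a log2 fold change of -0.86 (SE 0.25, edgeR adjusted p = 0.0128). Pax5 (ENSMUSG00000014030, chromosome 4, 44531145 to 44710487) ranged from 6.20 through 11.6 to 22.4 CPM in young and from 2.06 through 4.98 to 14.96 CPM in vehicle mice, again with 12 of 13 old mice below the young median. It fell by 1.09 on the log2 scale (SE 0.30, edgeR adjusted p = 0.00914). Ebf1 (ENSMUSG00000057098, chromosome 11, 44617317 to 45008091) did not pass. Its mean was 44.0 ± 5.74 CPM for the young mice (SD, n = 12) and 31.9 ± 7.62 CPM for the vehicle mice (SD, n = 13). Each of the 13 vehicle mice was under the young median. Its log2 fold change of -0.46 had an edgeR adjusted p of 0.0172 but stayed under the fold threshold of 0.5. Without a fold threshold, 19.4% of all genes passed.

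The other precursor genes did not pass. Vpreb1 had lowest, median and highest levels of 2.01, 3.602 and 7.36 CPM in young mice and 0.641, 2.24 and 8.004 CPM in vehicle mice, a log2 fold change of -0.47 (95% interval -1.24 to 0.31, edgeR adjusted p = 0.445). For Igll1 these levels were 2.90, 5.18 and 10.2 CPM in young and 0.470, 3.23 and 13.96 CPM in vehicle mice, with a log2 fold change of -0.51 (95% interval -1.36 to 0.33, edgeR adjusted p = 0.436), or -0.80 without vehicle mouse 14. The vehicle group thus held both lower and higher mice than the young group. The coefficient of variation was 41.4% in young and 77.0% in vehicle mice for Vpreb1, and 37.5% and 82.9% for Igll1. Dntt (ENSMUSG00000025014, chromosome 19, 41029275 to 41059523) had medians of 8.19 CPM in young and 5.18 CPM in vehicle mice, and ranges from 4.88 to 15.3 and from 1.10 to 16.8 CPM. Its means were 9.25 ± 3.22 CPM (SD, n = 12) and 7.17 ± 4.41 CPM (SD, n = 13), a log2 fold change of -0.37 (edgeR adjusted p = 0.405). Il7r (ENSMUSG00000003882, chromosome 15, 9506161 to 9529876) had medians of 12.1 CPM in young and 8.37 CPM in vehicle mice, and ranges from 7.25 to 20.8 and from 5.24 to 19.1 CPM. Its means were 13.3 ± 4.06 and 10.7 ± 5.09 CPM (SD, n = 12 and 13), a log2 fold change of -0.32 (edgeR adjusted p = 0.468).

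Neutrophil and erythroid genes, which marrow left in the bone would also bring, are given beside these values. The summed level of the neutrophil genes had a median of 10619 CPM in young, 14851 CPM in vehicle and 15399 CPM in AP mice, and 0 of 8 passed between vehicle and young mice. For the erythroid genes the medians were 8793, 5301 and 5118 CPM, and 3 of 7 fell between vehicle and young mice, with all 7 values below 0 and a median log2 fold change of -0.82. The part of the erythroid cells in the result was not tested. With the summed neutrophil level as a covariate, the same 4 members fell between vehicle and young mice, beside 14.8% of all genes passing in either direction. The log2 fold change of Rag1 was then -1.98 (edgeR adjusted p = 0.00109) and that of Cd79a -0.98 (edgeR adjusted p = 0.00141). Dntt and Il7r, which did not pass, then had log2 fold changes of -0.58 and -0.53 (edgeR adjusted p = 0.0864 and 0.0970). For skeletal muscle, the medians were 29085 CPM in young, 43423 CPM in vehicle and 29687 CPM in AP mice, and 1 of 6 genes passed with age, upwards. The part of muscle in the result was not tested.

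The second comparison asked how the genes differed between AP and vehicle in old mice. No member passed, and among all genes tested only 0.0726% did. All 9 log2 fold changes lay above 0, with a median of 0.61 beside -0.0037 over all genes tested. At an unadjusted p under 0.05, 4 members (Rag1, Rag2, Il7r and Dntt) and 23.9% of all genes stood out. DESeq2 in place of edgeR called 3 members higher, beside 1.12% of all genes in either direction, with an adjusted p of 0.0309 for Rag1, 0.0495 for Rag2 and 0.0450 for Il7r.

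Rag1 again had the widest gap, with a log2 fold change of 1.38 (SE 0.45, 95% interval 0.51 to 2.26, edgeR adjusted p = 0.0782). Of the 16 AP mice, 13 lay above the vehicle median and 8 above the highest vehicle mouse, but 2 lay below the lowest one. The mean was 19.8 ± 17.5 CPM (SD, n = 16), with the highest level of all 41 mice in mouse 3 and the lowest in mouse 24, both treated with AP. Leaving out AP mouse 9 brought the edgeR adjusted p to 0.0472 for Rag1 and to 0.0465 for Il7r, the lowest of 41 such fits. The highest were 0.152 for Rag1 without vehicle mouse 16 and 0.248 for Il7r without AP mouse 18. Without AP mouse 3 the log2 fold change of Rag1 was 1.12. Rag2 had lowest, median and highest levels of 0.103, 2.07 and 6.99 CPM in AP mice and a mean of 2.13 ± 1.66 CPM (SD, n = 16), a log2 fold change of 1.13 (95% interval 0.35 to 1.91, edgeR adjusted p = 0.0974), with 13 of 16 mice above the vehicle median. The log2 fold change of Rag2 was 1.39 without vehicle mouse 14 (edgeR adjusted p = 0.0527) and 0.89 without AP mouse 3 (edgeR adjusted p = 0.179).

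Dntt ran from 2.83 through a median of 10.1 to 20.8 CPM in AP mice, with a mean of 11.1 ± 5.11 CPM (SD, n = 16), and 14 of 16 lay above the vehicle median (log2 fold change 0.62, edgeR adjusted p = 0.161). Igll1 had lowest, median and highest levels of 0.164, 7.90 and 12.1 CPM, a log2 fold change of 0.61 (95% interval -0.18 to 1.41, edgeR adjusted p = 0.350). For Vpreb1 these levels were 0.267, 4.51 and 6.83 CPM, with a log2 fold change of 0.34 (95% interval -0.39 to 1.07, edgeR adjusted p = 0.584), or 0.54 without vehicle mouse 14. Il7r ran from 8.02 through a median of 15.4 to 77.4 CPM, with 14 of 16 mice above the vehicle median and a log2 fold change of 0.79 (95% interval 0.27 to 1.31, edgeR adjusted p = 0.0838). Both surrogate light chain genes had 12 of 16 mice above the vehicle median and 2 below the lowest vehicle mouse. The pan-B genes had log2 fold changes of 0.30 for Pax5 (edgeR adjusted p = 0.520), 0.29 for Cd79a (edgeR adjusted p = 0.443) and 0.07 for Ebf1 (edgeR adjusted p = 0.758). The upper 95% bounds of these 3 were 0.85, 0.75 and 0.33. Without vehicle mouse 6 the values of Pax5 and Cd79a were 0.48 and 0.46, and without AP mouse 3 that of Pax5 was 0.20.

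Set against young mice, AP mice had 1 member past the threshold, Pax5 at 7.61 ± 3.84 CPM (SD, n = 16) with a log2 fold change of -0.79 (edgeR adjusted p = 0.0474), beside 8.58% of all genes tested and 4.85% downwards. This value lay at the edge of the threshold, since it was lost in 22 of the 41 fits that left out 1 mouse. Cd79a ran from 17.1 through a median of 42.2 to 76.05 CPM in AP mice, with a mean of 44.2 ± 19.7 CPM (SD, n = 16), a log2 fold change of -0.57 (95% interval -1.03 to -0.10, edgeR adjusted p = 0.0892). Ebf1 had a log2 fold change of -0.39 (edgeR adjusted p = 0.0375), under the fold threshold, without which 17.8% of all genes passed. The 6 precursor genes lay on both sides of 0, from -0.37 for Rag1 (95% interval -1.23 to 0.49, edgeR adjusted p = 0.598) to 0.48 for Il7r (95% interval -0.05 to 1.01, edgeR adjusted p = 0.218), with a median of -0.01. Without AP mouse 18 the value of Il7r was 0.12 (edgeR adjusted p = 0.743). That of Rag1 was -0.63 without AP mouse 3 and -0.22 without young mouse 34. With the neutrophil covariate it was -0.69, and 5 of the 6 precursor genes then lay below 0. These intervals leave room for differences in either direction. The 3 comparisons share their groups, so that they are not independent of each other.

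**Figure D2:**
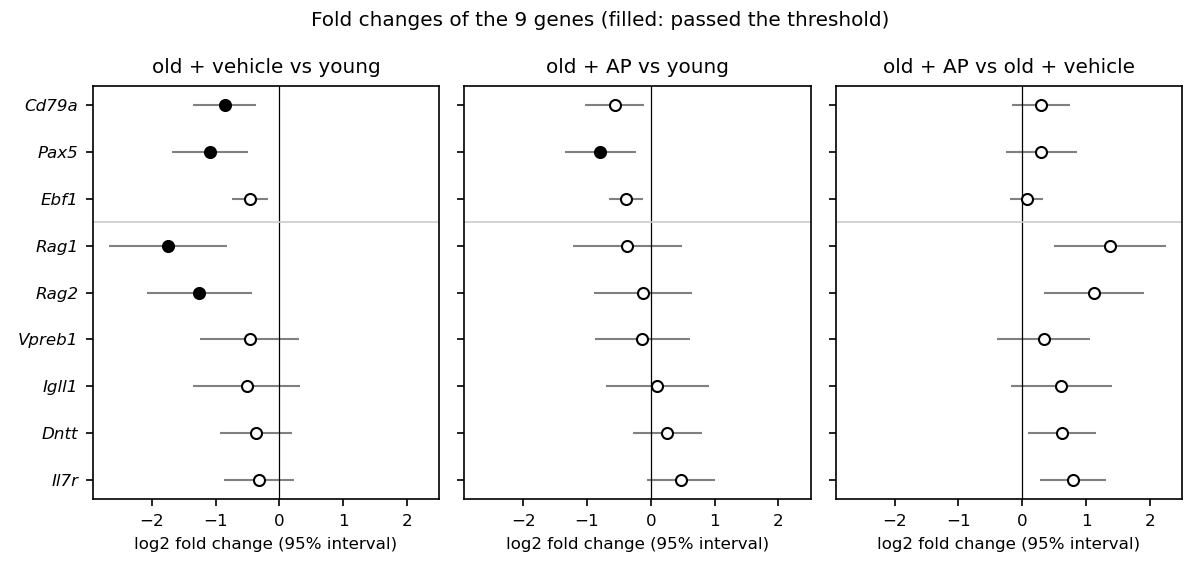
Log2 fold change of each gene (x axis) with its 95% interval in the 3 comparisons. Filled points passed both thresholds, on the adjusted p and on the fold change, and the grey line parts the pan-B genes (top) from the precursor genes. All 9 values lay below 0 in vehicle against young mice and above 0 in AP against vehicle mice, where no gene passed.

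The third question was whether the precursor genes moved beside the pan-B gene Cd79a or apart from it. Ratios to the other pan-B genes, Pax5 and Ebf1, were not tested. Against Cd79a these genes had differences of opposite sign with age, given below. The log2 ratio of each gene to Cd79a was taken within each mouse, which removes any scaling between libraries, and the groups were set against each other by permutation tests (two-sided, 100000 resamples) with adjustment over 24 tests (8 genes in 3 comparisons). Of these, 4 passed. The ratio of Rag1 to Cd79a fell by 1.11 in vehicle against young mice (95% interval -1.54 to -0.67, permutation test, adjusted p = 0.00048), with 12 of 13 mice below the young median. That of Pax5 fell by 0.31 (permutation test, adjusted p = 0.0314), also with 12 of 13 mice below the young median. The ratio of Ebf1, the other pan-B gene, had a difference of 0.42 with age (95% interval 0.014 to 0.83, permutation test, adjusted p = 0.124), with 10 of 13 mice above the young median. In AP against young mice, the ratio of Dntt was higher by 0.77 (95% interval 0.53 to 1.02, permutation test, adjusted p = 0.00048). That of Il7r was higher by 0.89 (95% interval 0.39 to 1.39, permutation test, adjusted p = 0.00128). For each, 15 of 16 AP mice lay above the young median. The levels themselves had log2 fold changes of -0.57 for Cd79a, 0.26 for Dntt and 0.48 for Il7r, none past the threshold. The lower Cd79a level thus enters both ratios. In the same comparison 4 of 8 T cell genes rose, with a median log2 fold change of 0.96, which became 2 of 8 and 0.19 without AP mouse 18. Without that mouse the ratio of Il7r rose by 0.68 (95% interval 0.37 to 0.99, permutation test, adjusted p = 0.00176).

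The other precursor genes did not pass against Cd79a with age. In vehicle against young mice, the difference of the ratio was -0.68 for Rag2 (permutation test, adjusted p = 0.0750), 0.03 for Igll1 (adjusted p = 0.961), 0.16 for Vpreb1 (adjusted p = 0.673), 0.36 for Dntt (adjusted p = 0.124) and 0.52 for Il7r (adjusted p = 0.0859). Between AP and vehicle in old mice, 0 of 8 ratios passed after adjustment. Rag2 was nearest, with a difference of 0.82 (95% interval 0.15 to 1.5, permutation test, adjusted p = 0.0804) and 14 of 16 mice above the vehicle median. Rag1 stood at 0.74 (95% interval -0.08 to 1.57, adjusted p = 0.225), also with 14 of 16 mice above it. Without vehicle mouse 16 the ratio of Dntt was also higher in vehicle than in young mice (0.45, permutation test, adjusted p = 0.0428).

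The spread of the ratios was wider in old mice for several genes. In young mice the log2 ratio of Igll1 to Cd79a stayed between -3.76 and -3.05, whereas it ran from -4.70 to -1.68 in vehicle and from -6.94 to -2.18 in AP mice. The SD of the Rag1 ratio was 0.25 in young, 0.76 in vehicle and 1.46 in AP mice, and that of Dntt 0.16, 0.60 and 0.47. For Ebf1 the SD was 0.50, 0.54 and 0.49, close to each other. In AP mice the low ends rested on mice 24 and 18, at -5.68 and -4.89 for Rag1 and at -6.94 and -6.00 for Igll1. The other 14 AP mice ran from -2.20 to -0.089 for Rag1 and from -3.10 to -2.18 for Igll1. These spreads are given without a test.

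**Figure D3:**
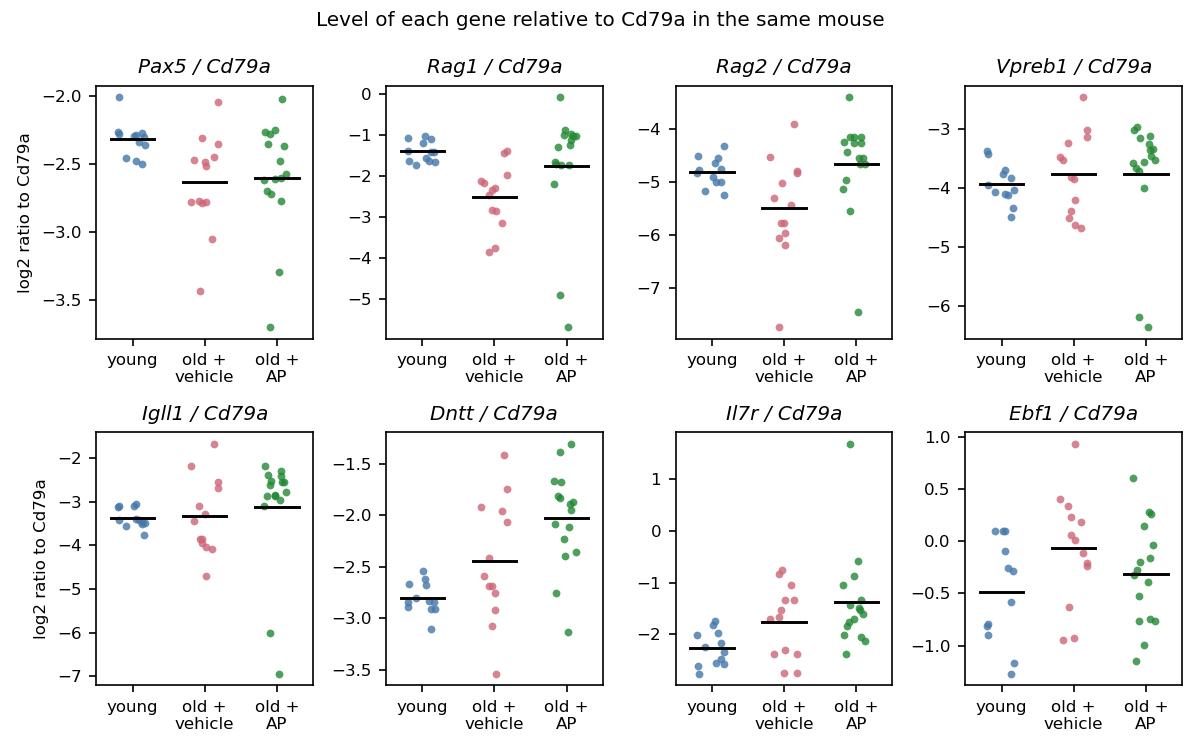
Log2 ratio of each of 8 genes to Cd79a within the same mouse (y axis, own scale per panel) by group. Each point is 1 mouse and each line a group mean. For Rag1 the means were -1.40 in young, -2.51 in vehicle and -1.77 in AP mice, and for Dntt -2.80, -2.44 and -2.03.

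Across the 41 mice, most members moved together. With group means removed, Pearson's r of log2 CPM was 0.97 for Vpreb1 and Igll1, 0.92 for Rag1 and Rag2, 0.94 for Rag1 and Igll1, and 0.92 for Cd79a and Pax5. For Il7r, r lay between -0.03 and 0.39 with the other precursor genes, at -0.04 with Ebf1 and at 0.38 with Cd79a. Spearman's rho of Il7r, which depends less on single mice, lay between 0.27 and 0.43 with the other precursor genes, at 0.26 with Ebf1 and at 0.51 with Cd79a. Over pairs of 1 precursor and 1 pan-B gene the median r was 0.76, against 0.81 within the precursor genes and 0.75 within the pan-B genes. These values are descriptions over the same libraries, which share their depth and their mix of tissues. Of 15532 other genes, those most like Cd79a over the 41 mice, by Pearson's r with group means left in, included Cd79b (r = 0.95), Tnfrsf13c (0.94), Spib (0.94) and Fcrla (0.94). By the same measure, those most like Vpreb1 were Vpreb3 (0.93), Cplx2 (0.90), Fam129c (0.84), Bcl7a (0.83) and Gm12057 (0.83).

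**Figure D4:**
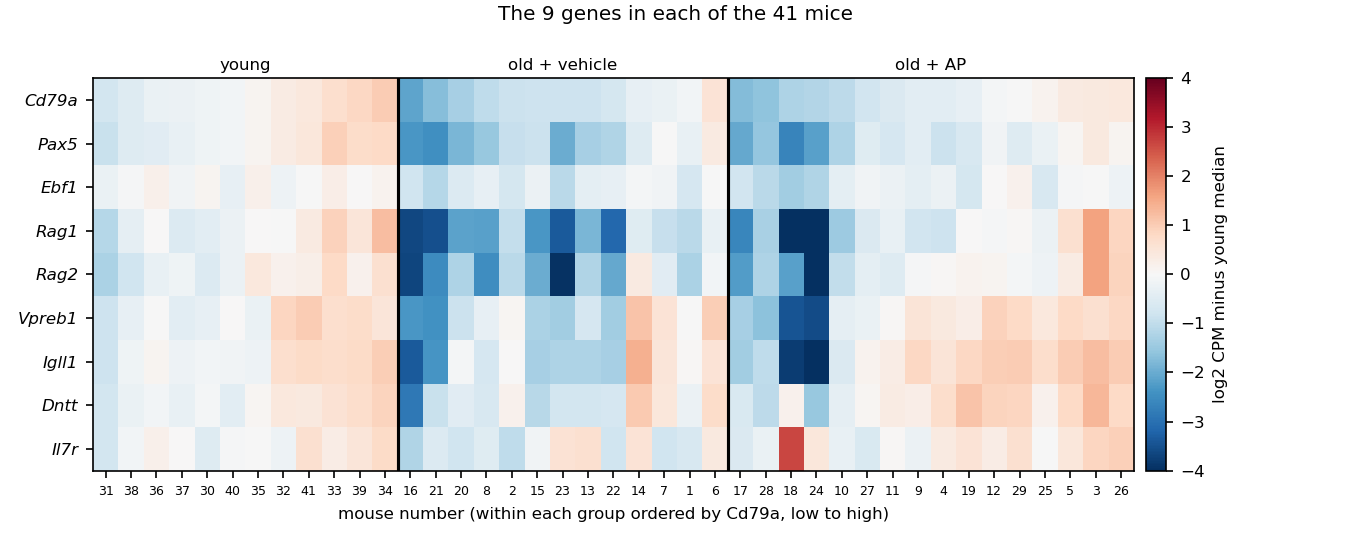
Log2 CPM of each gene minus its young median (colour, clipped at 4 in either direction) in each of the 41 mice, ordered within a group by Cd79a. Old + vehicle-treated mouse 16 was low in all 9 genes, AP mouse 24 was the lowest of all mice for Vpreb1, Igll1, Rag1 and Rag2, and AP mouse 18 had the highest Il7r.

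Single mice showed how far the genes could separate. Old + vehicle-treated mouse 16 had the lowest Cd79a (13.2 CPM), Dntt (1.10 CPM) and Il7r (5.24 CPM) of all 41 mice, and also the lowest summed level of neutrophil genes (4792 CPM) and of cell division genes (322 CPM). Without it, the same 4 members passed between vehicle and young mice. Old + AP-treated mouse 24 held 0.267 CPM of Vpreb1, 0.164 of Igll1, 0.452 of Rag1 and 0.103 of Rag2, the lowest of all mice, while its Cd79a stood at 25.2 CPM with 6 mice below it. This mouse also had the highest summed level of macrophage genes (1661 CPM) and the lowest of osteoblast and osteocyte genes (6795 CPM) of all mice, whose part in these values was not tested. Old + AP-treated mouse 3 was the opposite, with the highest Rag1 (69.7 CPM), Rag2 (6.99 CPM) and Dntt (20.8 CPM) of all mice and a Cd79a of 74.1 CPM. Old + AP-treated mouse 18 also had Vpreb1 (0.291 CPM), Igll1 (0.337 CPM) and Rag1 (0.779 CPM) near the floor of the series. Its Rag2 stood at 0.477 CPM with 6 mice below it, and its Dntt at 9.24 CPM with 22 mice below it. Its Il7r was 77.4 CPM, above all 40 others.

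Mouse 18 had the largest library (75942717 counts) and the highest summed level of 10 mature B cell genes of all mice. That sum was 5612 CPM, in a list whose highest gene was Ighm. Its 6 plasma cell genes summed to 766 CPM, the highest among AP mice, beside 773 CPM in vehicle mouse 13. Most T cell genes were also high in mouse 18. The summed level of 8 T cell genes was 516 CPM in mouse 18, whereas the next highest of all mice, vehicle mouse 23, stood at 128 CPM. Of the 8 genes, 7 were higher in mouse 18 than in any other mouse, by 5.30 to 29.2 times the median of the 40 others. The ends of the list, named here after their values were seen, were Cd8a at 158 CPM against a median of 5.40 CPM and Cd4 at 24.9 CPM against 19.1 CPM, with 9 mice above mouse 18 for Cd4. Without mouse 18, the log2 fold change of Il7r between AP and vehicle was 0.43 (edgeR adjusted p = 0.248) in place of 0.79 (adjusted p = 0.0838). With the summed T cell level as a covariate in all mice, it was 0.56 and passed (edgeR adjusted p = 0.0406), as did 0.15% of all genes. In the same fit Il7r fell by 0.59 in vehicle against young mice (edgeR adjusted p = 0.00117), where 11.4% of all genes passed. Against young mice, the value for AP mice was then -0.03 (edgeR adjusted p = 0.897). For Rag1 the same covariate gave -1.88 with age (edgeR adjusted p = 0.00441) and 1.44 for AP against vehicle (edgeR adjusted p = 0.0757). Both alternatives were chosen after seeing the data.

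**Figure D5:**
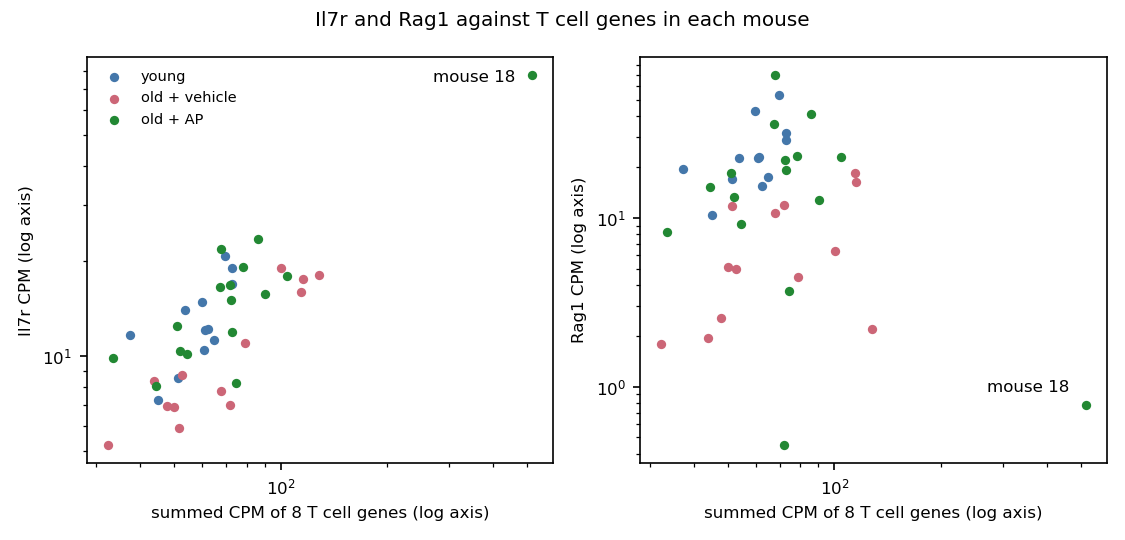
Il7r (left) and Rag1 (right) in CPM against the summed CPM of 8 T cell genes, 1 point per mouse, coloured by group, on log axes. Mouse 18 lies alone at 516 CPM of T cell genes, with the highest Il7r (77.4 CPM) and the second lowest Rag1 (0.779 CPM).

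Genes around the 9 members were followed in 6 further lists. Of 10 other pan-B and B cell receptor genes, 6 fell in vehicle against young mice and none rose. Among them were the transcription factor gene Spib (log2 fold change -1.22, edgeR adjusted p = 0.00104) and Fcrla (-1.03, edgeR adjusted p = 0.00449). All 10 values lay above 0 for AP against vehicle, with a median of 0.49, and none passed. Of 9 other pro-B and pre-B genes, only Vpreb3 fell with age (-1.23, edgeR adjusted p = 0.0247), with median levels of 12.95 CPM in young, 5.13 in vehicle and 11.5 in AP mice. In AP against young mice, Bst1, named here after its values were seen, rose (0.57, edgeR adjusted p = 0.0277), but did not pass without mouse 18. This list had a median of -0.27 with age and 0.20 for AP against vehicle.

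Among 10 genes of mature B cells, 6 fell with age and 1 rose. Cr2, a complement receptor of mature B cells, fell by 1.63 on the log2 scale (edgeR adjusted p = 0.00115) and Fcer2a, which encodes CD23, fell by 1.61 (edgeR adjusted p = 0.00180). Ighm, which is used by plasma cells as well, rose by 1.13 (edgeR adjusted p = 0.0134). In AP against young mice 3 genes of the list were lower and 1 was higher. Of the 6 that fell with age, Cr2 and Fcer2a passed there too, with log2 fold changes of -1.56 (edgeR adjusted p = 0.00114) and -1.39 (edgeR adjusted p = 0.00445), and the other 4 did not. Between AP and vehicle no gene of the list passed, with a median of 0.25 and 8 of 10 values above 0, and the values of Cr2 and Fcer2a were 0.07 and 0.22 (edgeR adjusted p = 0.912 and 0.712).

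Of 9 other transcription factor genes of the B lineage, Bach2 fell with age (-0.89, edgeR adjusted p = 0.00768) and none passed between AP and vehicle, where the median of the list was 0.41. In AP against young mice, Ikzf1, named here after its values were seen, rose (0.51, edgeR adjusted p = 0.0465), but did not pass without mouse 18. In the list of interleukin-7 and niche signals, Cxcl12, the chemokine with which stromal cells hold B cell precursors, fell by 0.61 (edgeR adjusted p = 0.00165), and the other 9 genes did not pass with age. The median of Cxcl12 was 1770 CPM in young, 1111 in vehicle and 1061 in AP mice. In AP against young mice 2 of the 10 genes were lower, and between AP and vehicle 0 passed. Il7, the ligand of IL7R, is named here after its values were seen. Its log2 fold change was -0.44 in vehicle mice (edgeR adjusted p = 0.0586) and -0.69 in AP mice (edgeR adjusted p = 0.0021), both against young mice. None of 9 genes of V(D)J recombination and end joining, which other cells also use, and none of 6 genes of cell division passed in any comparison. Their medians with age were -0.13 and -0.10. Between AP and vehicle they were 0.097 and 0.43, with all 6 cell division genes above 0.

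Markers of other cells were counted beside these results. With age, in vehicle against young mice, 0 of 6 plasma cell, 0 of 8 T cell and 0 of 6 macrophage genes passed, although 3 T cell genes rose in the fit without AP mouse 18. Of 6 plasmacytoid dendritic cell genes 3 fell, although their sum was set by Cox6a2, which muscle also uses. Of 8 osteoblast and osteocyte genes 3 fell and 2 rose, and of 7 marrow stroma and adipocyte genes 3 fell and 1 rose. Between AP and vehicle no gene of any of these lists passed, muscle and neutrophil genes included. The median log2 fold change there was 0.45 for the erythroid genes (6 of 7 above 0) and -0.51 for the muscle genes (all 6 below 0). For the T cell genes it was 0.43, with all 8 above 0, and -0.13, with all 8 below 0, without mouse 18. In AP against young mice, 4 of 8 T cell and 2 of 8 neutrophil genes rose (2 and 1 without mouse 18, when 2 plasmacytoid dendritic cell genes fell), while 5 osteoblast and osteocyte, 2 stroma and adipocyte and 1 erythroid gene fell and 2 osteoblast and osteocyte genes rose. No gene of these lists was under 0.1 CPM in every mouse of a group. The part of these cells in the B lineage results was not tested beyond the neutrophil and T cell covariates given above.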

How the data were processed

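The authors sequenced RNA on a HiSeq2000, aligned the reads to mm10 and deposited unnormalized counts for each gene and mouse. The submitters' processing notes name GRCm38, TopHat2 2.0.6 and HTSeq, and the annotation release and strand setting are not given in the sources used here. Samples were grouped by the age and treatment labels, mice are named by the number in their titles, and none was left out. No pair of mice in a group was closer than 31.9 times the counting variance.

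From the counts, edgeR 4.0.16 in R 4.3.3 was used for TMM scaling, for the low-count filter (filterByExpr, 19292 genes left) and for quasi-likelihood tests in 1 model of 3 groups, with Benjamini-Hochberg adjustment over all genes tested. A call needed a log2 fold change of more than 0.5 either way at an adjusted p below 0.05. Intervals are the estimate with 1.96 standard errors either side. Ratios used log2 CPM with a prior count of 2 and permutation tests in Python 3.11.15 with NumPy 2.4.6 and SciPy 1.17.1. The adjusted p of 0.00048 rests on 2e-05 for Rag1, the smallest p that these resamples can give. Alternatives were DESeq2 1.42.0, its size factors, no filter, models of 2 groups, no fold threshold, covariates, another prior count and mice left out.

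The genes named are the 9 members, in each pathway list at most the 3 called genes of largest log2 fold change with age or between AP and vehicle, and the 5 genes most correlated with Cd79a and with Vpreb1 among those with a mean of at least 1 CPM. A gene that this rule selects is not reported here. Other marker lists are given by counts and sums. The members and lists were chosen with earlier results of these data known. Promoter windows are from RefSeq.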

Additional observations from a re-analysis of the deposited data

How the results depend on the processing

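Between vehicle and young mice, 4 members passed with DESeq2, its size factors, no filter, models of 2 groups, the neutrophil covariate and without mouse 18, and 5 passed with no fold threshold or with the T cell covariate. Of all genes, 9.06% passed in the main fit, 14.8% with the neutrophil covariate, 11.4% with the T cell covariate and 19.4% with no fold threshold. The shares in the other fits of this comparison are not given here, so the counts cannot be set against them. With each mouse left out in turn the count ranged from 3, without young mouse 33 or 34, to 5, without vehicle mouse 6, when Ebf1 passed. Between AP and young mice the count of 1 became 0 with no filter and without mouse 18, and 2 with no fold threshold (Pax5 and Ebf1), with the neutrophil covariate or with the T cell covariate (Pax5 and Cd79a). It ranged from 0 to 1 with each mouse left out. Pax5 was lost without mouse 2, 4, 10, 11, 13, 14, 15, 17, 18, 19, 22, 24, 28, 29, 30, 32, 33, 34, 35, 39, 40 or 41, at adjusted p up to 0.0899. Between AP and vehicle the count of 0 became 3 with DESeq2 and 1 with the T cell covariate (Il7r), and ranged from 0 to 2 with each mouse left out, the 2 being Rag1 and Il7r without mouse 9. Values that were not significant turned in sign in AP against young mice for Igll1 (-0.10) and Dntt (-0.046) with the neutrophil covariate and for Il7r (-0.030) with the T cell covariate, and for the ratio of Vpreb1 to Cd79a between AP and vehicle, from -0.0019 to 0.16, without mouse 18. The ratio tests that passed numbered 4 with a prior count of 0.5 and without mouse 18, and 5 without mouse 16. The causes of these changes were not tested. Rag2 was read only 5 times in the lowest mice, where counting error is large.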
